A study of Mus musculus with 24 samples.

Results

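Gene expression in the whole hippocampus was compared between adult and young male mice. The adult males (MA) were 12 months old and the young males (MY) were 3 months old, and the 8 arrays, 4 in each group, were chosen by their group labels from the 24 of the series. The other 16 arrays held old males of 24 months (MO) and adult, young and old females (FA, FY and FO), again 4 arrays in each group. All animals were C57BL6 mice that had been left to age with neither a drug nor a genetic change, the labels number the 4 arrays of a group as replicates, and total RNA of the hippocampus (CA1, CA2, CA3 and dentate gyrus) was measured on Illumina Mouse Ref8 arrays. The question here was which hippocampal transcripts differ between early adulthood and midlife in males.

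The hippocampus holds excitatory pyramidal neurons of the CA fields, granule neurons of the dentate gyrus, interneurons, astrocytes, microglia, vessels and the oligodendrocyte lineage. Between early adulthood and midlife, the birth of dentate granule neurons and the division of oligodendrocyte precursors are known to decline, myelin goes on being added, and microglia and the complement system, a set of proteins that tags synapses and debris for removal, become more active in later life. Clustered protocadherins are adhesion proteins whose alternative promoters give single neurons different cell surfaces. Replication-dependent histones are made from clustered genes without introns and are best known for their synthesis during DNA replication.

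Values are normalized probe intensities on a linear scale. Intensities under 16 were set to 16, since 22.4% of all deposited values lay below 0. Fold changes are differences between the group means of log2 intensity (MA minus MY), with their standard error. The fold change of a probe close to this floor of 16 therefore understates the difference. Where genes are counted by a higher or lower mean, the mean is that of log2 intensity. A probe was kept where it was above 16 in all 4 arrays of MA or all 4 of MY, which held for 11514 of 25697 probes (44.8%), for 8230 genes. A kept probe with an MY array at 16 entered through MA alone, and a kept probe with an MA array at 16 through MY alone. For such probes the filter favours a higher mean in the group they entered through. Where a gene has several probes, the one with the highest mean was used in gene lists. Each of the 8 arrays had 11775 to 12201 probes above 16, and Actb, which encodes beta-actin, had intensities of 4726 ± 316 in MA and 4508 ± 286 in MY (here and below, mean ± SD over 4 arrays). Hippocampal markers were present in all 8 arrays: Fibcd1, a marker of CA1, ranged from 1511 to 2001 in MA and from 1981 to 2211 in MY, and C1ql2, a marker of dentate granule cells, from 1624 to 2727 in MA and from 1929 to 2625 in MY. The probes for Snap25 and Tdo2 were at 16 in all 8 arrays, so those markers could not be read. On the first principal component of the 8 arrays, which held 30.9% of the variance, array MA3 lay at 29.5 while the other 7 lay between -13.8 and 3.26. Of 50 recomputed genes with an unadjusted p under 0.05, 18 lost it when at least 1 array was left out, and the arrays concerned are named with these genes.

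No probe differed between MA and MY after adjustment. In limma, fitted over the 6 groups with Benjamini-Hochberg adjustment over 11514 probes, 0 probes (0%) had an adjusted p under 0.05 and the smallest adjusted p was 0.481, for Pcdhb3. At an unadjusted p under 0.05 there were 240 probes (2.08%), 121 higher in MA (1.05%) and 119 lower (1.03%), and their number ran from 172 without MY3 to 378 without MA2. With quantile normalization there were 157 higher and 101 lower, so that this split depends on the scaling. A fit over the 8 arrays alone also called 0 probes. Its smallest adjusted p was 0.0715, and its unadjusted p was under 0.05 for 432 probes (3.75%). Both 2.08% and 3.75% are below the share of 0.05 that this threshold gives where no probe differs. The same model called 0 probes between FA and FY, where 1240 probes (10.8%) had an unadjusted p under 0.05.

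The test that the study's methods describe (a two-way analysis of variance over age and sex, then a Student-Newman-Keuls comparison of MA with MY and a fold change of at least 1.2, with no correction over probes) called 37 probes (0.321%), 18 higher in MA (0.156%) and 19 lower (0.165%). This is called the methods' test below. With the Student-Newman-Keuls step taken over the 3 male ages only, it called 72 probes (0.625%), 30 higher and 42 lower, which hold all 37. Of all kept probes, 281 (2.44%) had intensities that did not overlap between the groups, 116 higher in MA (1.01%) and 165 lower (1.43%). Under quantile normalization these became 146 higher and 131 lower. Of the 37 probes called by the methods' test, 27 also did not overlap. Among the 37, Upk1b, Ppl, Tnfsf13b and Uty had MY arrays at 16. Prc1, Sin3b, Gss, Ankrd27, Mcu, Tnc and Mkrn3 had MA arrays at 16. These were kept through the group with their higher mean alone, so the filter favoured their direction in both counts. Changes were small: the median size of a log2 fold change was 0.08, against a median standard error of 0.13, and 73 probes differed by at least 1.5-fold.

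**Figure D1:**
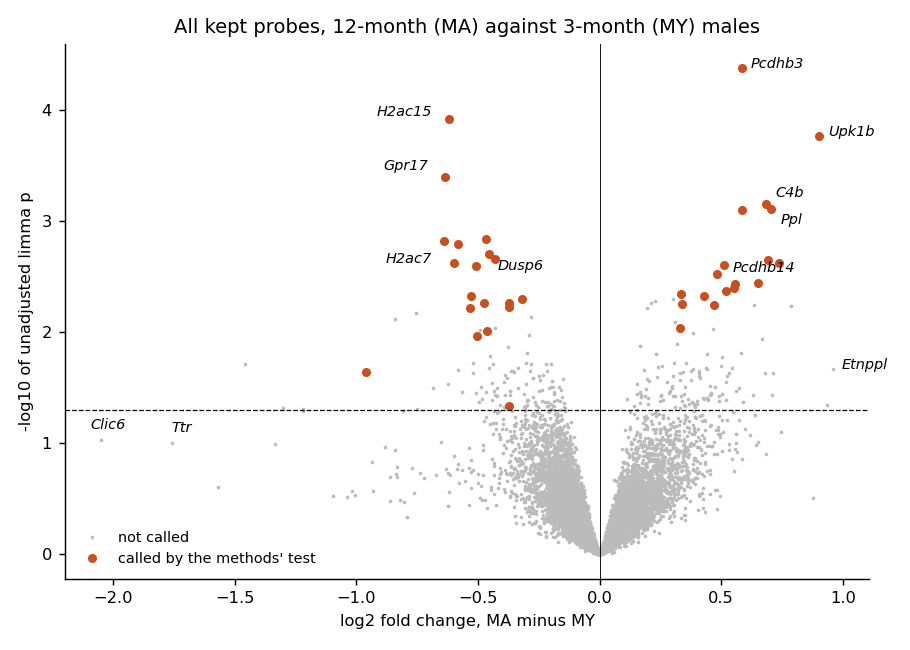
Each point is 1 of the 11514 kept probes, with its log2 fold change (MA minus MY) on the horizontal axis and the -log10 of its unadjusted limma p on the vertical axis. The 37 probes called by the methods' test are larger and coloured, the dashed line marks a p of 0.05, and Pcdhb3, with the smallest p, lies at a log2 fold change of 0.59. Clic6 and Ttr, genes of the choroid plexus, have the most negative fold changes (-2.05 and -1.76) but lie under the dashed line.

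Among the clustered protocadherins, Pcdhb3, Pcdhb14 and Pcdhb12 were called higher in MA by the methods' test. These genes lie on chromosome 18, and 11 of the 50 on the array were kept, with a median log2 fold change of 0.24, against -0.01 over all 8230 genes. Of the 11, 9 had a higher mean in MA, against 45.4% of all genes. At an unadjusted p under 0.05, 4 of the 11 were higher and 0 lower (1.04% and 1.03% of all genes), the methods' test called 3 higher (0.158% of all genes), and 4 did not overlap, all higher in MA (0.96% of all genes). The median lay between 0.19 (without MA3) and 0.30 (without MY2) when 1 array was left out, and was 0.14 with a floor of 32 in place of 16.

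Pcdhb3 had intensities of 138, 166, 131 and 149 in MA, against 89.2, 107, 94.0 and 97.6 in MY. Every MA array lay above every MY array, with a log2 fold change of 0.59 ± 0.12 (SE), an unadjusted p of 4.17e-05 and an exact permutation p of 0.0286, the smallest that 70 divisions of 8 arrays allow. Any gene whose groups do not overlap has this permutation p, so it adds nothing to the lack of overlap. Pcdhb14 had 44.5, 43.3, 56.3 and 50.6 in MA, against 35.5, 33.3, 30.9 and 36.5 in MY, which again do not overlap, and its log2 fold change was 0.51 ± 0.15. Pcdhb12 had 90.1, 80.3, 78.1 and 64.8 in MA, against 61.1, 62.5, 63.9 and 60.1 in MY, and its lowest MA array lay just above the highest MY array (0.33 ± 0.12). Pcdhb16 had the largest fold change of the 11 (0.71 ± 0.29) but its arrays overlapped, with 33.8, 18.6, 45.3 and 30.6 in MA and 20.4, 17.4, 16 and 21.1 in MY, and without MA3 its fold change was 0.52, with an unadjusted p of 0.101 (0.0519 without MA1 and 0.0590 without MY3). With an MY array at 16, Pcdhb16 was kept through MA alone, so the filter favoured its place among the higher genes of the list. Pcdhb7 did not overlap either, at 100 ± 6.18 in MA and 85.0 ± 9.86 in MY, while Pcdhb22 (52.3 ± 2.49 in MA and 57.5 ± 2.70 in MY) and Pcdhac2 had lower means in MA. Protocadherins of 1 cluster are close copies of each other, so a probe may read more than 1 of them.

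**Figure D2:**
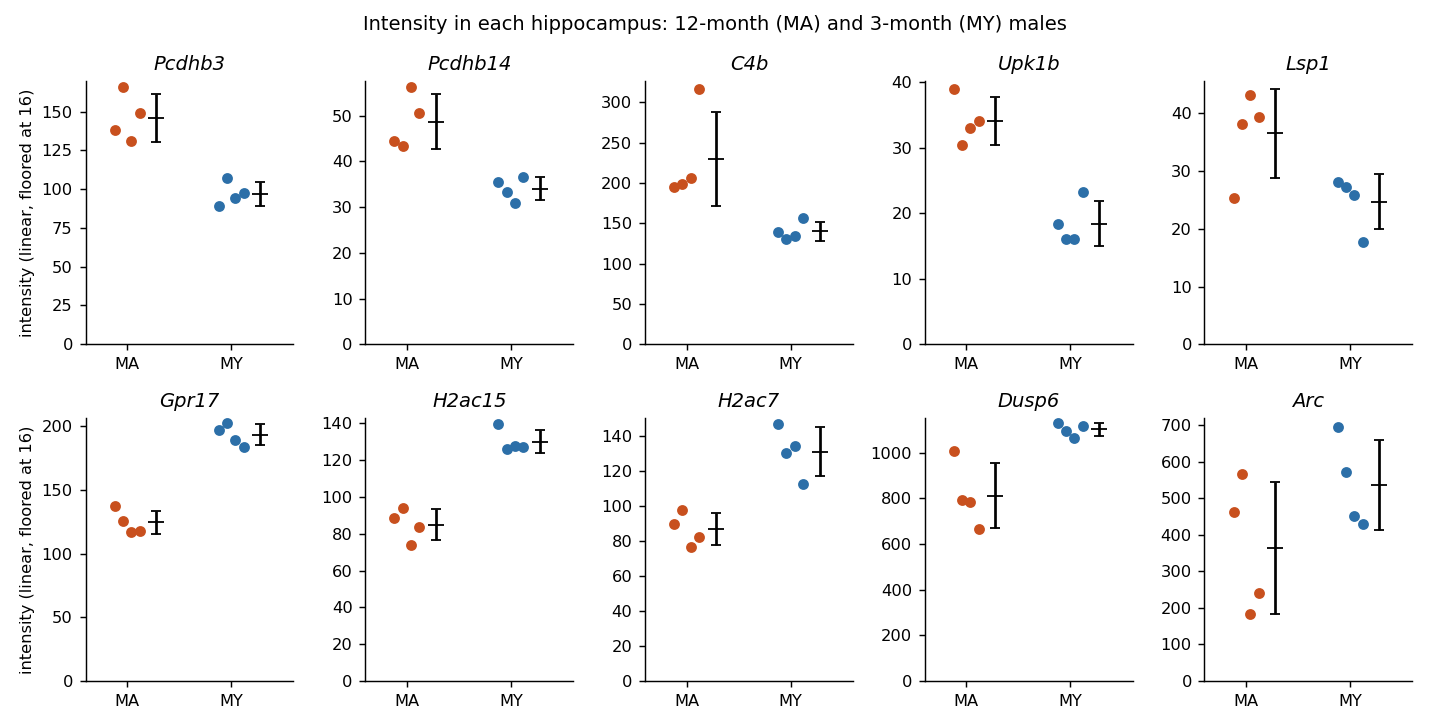
Intensity on a linear axis for 10 genes, with 1 point per array, MA in orange and MY in blue, and the mean ± SD beside the points. For Pcdhb3, Pcdhb14, C4b and Upk1b every MA array lies above every MY array, for Gpr17, H2ac15, H2ac7 and Dusp6 every MA array lies below, and for Lsp1 and Arc the groups overlap.

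Among immune genes, C4b, which encodes complement component 4, was the one with the smallest p. It had 195, 199, 207 and 317 in MA, against 140, 130, 134 and 156 in MY. The groups did not overlap, MA4 stood apart above the other MA arrays, and the log2 fold change was 0.69 ± 0.18 with all arrays and 0.52 without MA4. The other 6 kept complement genes of 18 on the array did not reach an unadjusted p of 0.05. The 3 chains of C1q, the protein that starts the classical pathway, had higher means in MA: C1qa at 106 ± 9.68 against 97.1 ± 6.21 in MY, C1qb at 490 ± 98.1 against 449 ± 40.7 in MY and C1qc at 431 ± 60.4 against 377 ± 34.7 in MY.

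Lsp1, a cytoskeletal protein of leukocytes, had 25.3, 38.2, 43.2 and 39.4 in MA, against 28.1, 27.2, 25.8 and 17.8 in MY. It was called by the methods' test (0.56 ± 0.17), with MA1 inside the range of MY. Cela1, an elastase, had 27.1 ± 4.12 in MA and 25.2 ± 2.88 in MY (0.10 ± 0.16, unadjusted p of 0.533). Tnfsf13b, the B-cell survival factor BAFF, was called by the methods' test at 33.1, 30.8, 23.4 and 30.0 in MA, against 16, 26.6, 16 and 17.4 in MY, of which 2 lay at the floor. A brighter second probe gave 0.32, with an unadjusted p of 0.109, and was not called. Adgre1, an adhesion receptor used as a macrophage marker, did not overlap on 1 probe, at 36.3 ± 2.74 in MA and 26.3 ± 1.15 in MY (0.47 ± 0.16), while on a second probe the log2 fold change was 0.35 ± 0.20 and the groups overlapped.

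In the homeostatic microglia list 14 of 17 kept genes had higher means in MA (45.4% of all genes did), with a median log2 fold change of 0.17. However, 0 of the 17 reached an unadjusted p of 0.05. The list also holds Tyrobp, Ly86 and Aif1, which the paper reports as induced with age in females, so it is not limited to markers of resting microglia. By quantitative PCR, the paper also reports smaller increases in males for Tyrobp and Ly86, and for Gpr34 of this list. P2ry12, a purine receptor, had 76.7, 60.7, 88.9 and 84.3 in MA, against 63.6, 61.5, 44.6 and 51.0 in MY, with the lowest MA array inside the range of MY (0.49 ± 0.24, unadjusted p of 0.0560). Trem2, a lipid-sensing receptor, did not overlap between the groups, at 116, 119, 127 and 132 in MA, against 101, 106, 97.2 and 108 in MY (0.26 ± 0.15). The list median was lowest without MA4 (0.07) and highest without MA2 (0.23). Of 17 disease-associated microglia genes, 1 was higher at an unadjusted p under 0.05 (1.04% of all genes): Slamf9, a surface receptor of myeloid cells, at 30.0 ± 5.55 in MA and 22.5 ± 3.67 in MY. Its p was past 0.05 without MA2, MA4, MY1 or MY4 (at most 0.0961, without MA4). Of 8 antigen presentation genes, 7 had higher means in MA, and 1, the class I molecule H2-M3, had an unadjusted p of 0.0268, at 37.8 ± 4.27 in MA and 29.2 ± 4.10 in MY, which was past 0.05 without MA4, MY1 or MY4 (at most 0.0895, without MA4). The 15 interferon response genes had a median of -0.04 and none reached an unadjusted p of 0.05.

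In the oligodendrocyte lineage 1 gene stood out. Gpr17, a receptor found in precursors that have begun to differentiate, had 137, 126, 117 and 118 in MA, against 197, 202, 190 and 184 in MY. The groups were far apart, with the highest MA array well below the lowest MY array, and the log2 fold change was -0.64 ± 0.15 (unadjusted p of 0.000396 over 6 groups and 1.24e-05 over the 8 arrays, adjusted p of 0.0715 in the 8-array fit). It stayed between -0.68 and -0.61 when any 1 array was left out. In bulk tissue, fewer cells of a type and less RNA per cell cannot be told apart. Gpr17 lies on chromosome 18.

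The other markers of the lineage differed less. Pdgfra, the receptor that defines early precursors, was at 348 ± 48.6 in MA and 358 ± 12.2 in MY (-0.05 ± 0.10), and Cspg4, the NG2 proteoglycan, at 44.3 ± 4.46 in MA and 45.5 ± 4.61 in MY (-0.04 ± 0.11). Bmp4, a growth factor made by differentiating precursors, had 22.5, 53.2, 24.95 and 17.5 in MA, against 49.9, 47.5, 55.3 and 31.9 in MY. The arrays overlapped through MA2 (-0.75 ± 0.36, unadjusted p of 0.0493), and the p was past 0.05 without any 1 of MA1, MA3, MA4, MY1, MY2 or MY3 (at most 0.169, without MA4). Enpp6, an enzyme of newly formed oligodendrocytes, was at 103 ± 31.99 in MA and 126 ± 26.1 in MY (-0.32 ± 0.23). Of 13 kept precursor genes the median log2 fold change was -0.09 (-0.02 without MA2, -0.03 without MY2 and -0.14 without MA3), and 2 were lower at an unadjusted p under 0.05 (1.03% of all genes). Of 21 kept myelin genes the median was 0.00, with Mbp, the myelin basic protein, at 9903 ± 1581 in MA and 9719 ± 1276 in MY. Il33, a nuclear alarmin, was the 1 gene of the myelin list with an unadjusted p under 0.05, at 532 ± 87.9 in MA and 419 ± 78.4 in MY (0.35 ± 0.15), and its p was past 0.05 without MA3, MA4, MY3 or MY4 (at most 0.143, without MY4).

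Among replication-dependent histone genes, H2ac15, H2ac7 and H2ac12, which encode histone H2A, were called lower in MA by the methods' test. Of 28 kept genes, 24 had a lower mean in MA (54.6% of all genes did), with a median log2 fold change of -0.20. At an unadjusted p under 0.05, 6 were lower and 1 higher (1.03% and 1.04% of all genes), the methods' test called 3, all lower (0.146% of all genes), and 4 did not overlap, all lower (1.52% of all genes). The list median lay between -0.28 without MA2 and -0.07 without MA3.

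H2ac15 had 88.8, 93.8, 73.6 and 83.7 in MA, against 140, 126, 127 and 127 in MY, with a log2 fold change of -0.62 ± 0.13 (unadjusted p of 0.000120), or -0.55 without MA3. H2ac7 had 89.8, 97.5, 76.6 and 82.0 in MA, against 147, 130, 134 and 113 in MY (-0.60 ± 0.18). H2ac12 had 93.3, 87.4, 60.5 and 76.4 in MA, against 119, 125, 94.4 and 109 in MY (-0.51 ± 0.15), or -0.38 without MA3. In all 3 genes every MA array lay below every MY array, with MA3 the lowest. H2ac24, with 555, 575, 515 and 528 in MA and 710, 673, 610 and 648 in MY, did not overlap either (-0.28 ± 0.10), and H2ac20 and H2ac10 were lower at an unadjusted p under 0.05 with overlapping arrays. H2ac20 lost this without MA3 (-0.15, p of 0.105), MA4, MY2 or MY3, and H2ac10 without MA1, MA2, MA4, MY1 or MY2 (-0.21, p of 0.157). H2bc18, a histone H2B gene, was the 1 member higher at that level, at 115 ± 8.89 in MA and 92.9 ± 14.6 in MY (0.31 ± 0.14), and lost it without MA2, MA3, MY2, MY3 or MY4 (p of at most 0.0990, without MY2). No gene of histone H3 or H4 reached that level, and H4c8 was at 147 ± 56.8 in MA and 137 ± 16.2 in MY. The coding sequences of H2A genes are close to identical, so these probes may read each other's transcripts.

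The 150 bases before the annotated start of the 3 H2A genes called by the methods' test are printed because these genes moved together. They come from RefSeq on GRCm38.p6, read 5′ to 3′ on the strand of the gene, with CCAAT and its reverse complement ATTGG in capitals, a motif bound by the factor NF-Y. H2ac15 is at chr13:21753913-21754062 (minus strand), H2ac7 at chr13:23574231-23574380 (plus strand) and H2ac12 at chr13:22035644-22035793 (minus strand).
H2ac15: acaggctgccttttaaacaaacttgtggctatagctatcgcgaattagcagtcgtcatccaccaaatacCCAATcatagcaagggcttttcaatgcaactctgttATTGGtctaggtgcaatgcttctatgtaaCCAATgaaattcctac
H2ac7: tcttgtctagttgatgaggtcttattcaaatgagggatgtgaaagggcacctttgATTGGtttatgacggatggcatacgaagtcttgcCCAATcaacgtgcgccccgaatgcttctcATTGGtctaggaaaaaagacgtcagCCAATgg
H2ac12: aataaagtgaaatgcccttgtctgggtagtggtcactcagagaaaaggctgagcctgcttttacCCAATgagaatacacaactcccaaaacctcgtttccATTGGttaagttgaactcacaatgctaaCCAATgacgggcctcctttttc
The motif occurs 3 times in H2ac15, 4 times in H2ac7 and 3 times in H2ac12. Of 32851 promoters searched over the same stretch, 24.5% held it at least once and 1.2% at least 3 times. Of the 27 kept histone genes with a promoter sequence, 20 held it at least once and 17 at least 2 times, against 6.02% of all promoters at least 2 times. Several copies are thus usual in this gene family and not particular to the 3 called genes. A match is a description of the sequence and was not tested against the expression values.

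The list of other cell cycle genes holds genes that drive division and genes that halt it (Cdkn and Gadd45 genes). Most of the latter also had a lower mean in MA, so the list median does not measure division. Of the 15 kept genes 11 had a lower mean in MA (54.6% of all genes did), with a median of -0.19. At an unadjusted p under 0.05, 1 was lower (1.03% of all genes). That gene was Gadd45g, which is induced by growth arrest and by neuronal activity, with 716, 772, 498 and 630 in MA, against 802, 818, 815 and 781 in MY. The groups did not overlap (-0.32 ± 0.10), and without MA3 the log2 fold change was -0.19. Mcm5, a subunit of the replicative helicase, did not overlap either, at 59.9 ± 7.10 in MA and 69.9 ± 1.77 in MY. Pcna, the replication clamp, had a higher mean in MA (30.2 ± 7.72, against 20.4 ± 4.20 in MY) with overlapping arrays. Prc1, a protein of the cell division spindle that is not on the list, was at the floor of 16 in all 4 MA arrays, against 22.1, 21.7, 19.4 and 23.3 in MY, so its log2 fold change of -0.43 is a bound. Of the immature neuron markers, Dcx (doublecortin) was at 86.1 ± 23.5 in MA and 85.8 ± 10.9 in MY (-0.02 ± 0.22), and Dpysl3, a cytoskeletal protein of growing axons, at 114 ± 18.3 in MA and 140 ± 9.37 in MY (-0.30 ± 0.11, or -0.19 with an unadjusted p of 0.0992 without MA4).

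**Figure D3:**
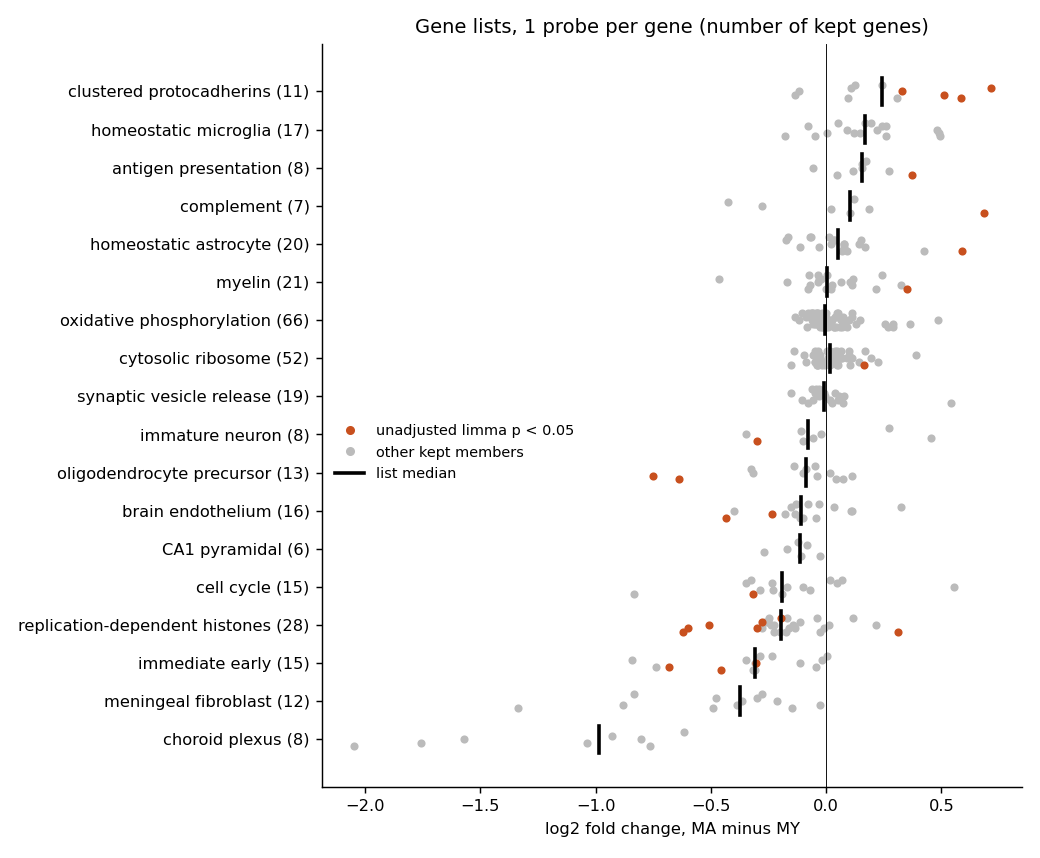
Log2 fold change (MA minus MY) of each kept gene in 18 gene lists, 1 probe per gene, with the number of kept genes in parentheses. Coloured points have an unadjusted limma p under 0.05 and black bars are list medians, which run from 0.24 for clustered protocadherins to -0.98 for choroid plexus, where no gene is coloured.

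Immediate early genes, which neurons transcribe within minutes of activity, had lower means in MA for 14 of 15 kept genes (54.6% of all genes), with a median log2 fold change of -0.31, and 3 were lower at an unadjusted p under 0.05 (1.03% of all genes). Dusp6, a phosphatase that switches off ERK signalling, had 1008, 793, 782 and 665 in MA, against 1130, 1096, 1064 and 1115 in MY. It did not overlap and was called by the methods' test (-0.46 ± 0.13), while a dimmer second probe gave -0.16 ± 0.23. Arc, a regulator of glutamate receptor traffic at synapses, had 461, 566, 184 and 241 in MA, against 695, 573, 452 and 428 in MY. MA3 and MA4 lay below every MY array and MA1 and MA2 lay within their range (-0.68 ± 0.30, or -0.40 with an unadjusted p of 0.177 without MA3). The p was also past 0.05 without MA4, MY1 or MY2.

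Fos, a transcription factor, showed the same division of the MA arrays, at 312, 439, 62.7 and 57.1 in MA, against 429, 288, 207 and 148 in MY, and with that spread its unadjusted p was 0.184. Egr1, another, was at 2912, 3038, 2089 and 1832 in MA, against 3533, 3134, 2730 and 2469 in MY. Nptx2, a secreted pentraxin of excitatory synapses, was the third gene lower at an unadjusted p under 0.05, at 255 ± 29.1 in MA and 318 ± 67.2 in MY (-0.30 ± 0.14). It lost this without MY4 (-0.19, p of 0.200), MA3, MA4 or MY1. Summed over the 15 genes, intensities were 8641, 8563, 5986 and 5659 in MA, against 10029, 8988, 7853 and 7758 in MY, so that MA3 and MA4 were below all MY arrays and the other pair was not. The list median was -0.43 without MA1, -0.18 without MA3, -0.17 without MA4 and -0.20 without MY1, and between FA and FY it was 0.17.

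Lists of neuronal function and of general metabolism sat near 0. The medians were -0.01 for 19 synaptic vesicle genes, -0.01 for 17 glutamate receptor and scaffold genes, -0.01 for 66 genes of oxidative phosphorylation, 0.02 for 52 genes of the cytosolic ribosome and 0.00 for 17 genes of cholesterol synthesis. Syp, the vesicle protein synaptophysin, was at 7169 ± 430 in MA and 7190 ± 136 in MY, and Gria2, a glutamate receptor subunit, at 3497 ± 501 in MA and 3514 ± 349 in MY. In the ribosome list 1 gene, Rps27, was higher at an unadjusted p under 0.05 and did not overlap, at 4305 ± 94.1 in MA and 3845 ± 223 in MY. The 6 kept CA1 genes, among them Dcn, which is also on the meningeal list, all had a lower mean log2 intensity in MA (median -0.11, or -0.26 without MA3). None of the 6 reached an unadjusted p of 0.05. Of 8 CA3 genes, Ociad2 did, at 704 ± 49.0 in MA and 812 ± 48.9 in MY (-0.21 ± 0.09), but not without MA2, MA3, MY2 or MY4 (p of at most 0.0834, without MY4). Tef, a clock-controlled transcription factor, had an unadjusted p of 0.0248 (0.30 ± 0.13) with MA3 at 835 and the other MA arrays between 535 and 572, and without MA3 its fold change was 0.15 (p of 0.177). The p was also past 0.05 without MY3 or MY4.

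The 20 kept genes of homeostatic astrocytes had summed intensities of 35376, 38256, 35067 and 38537 in MA, against 34929, 34924, 34438 and 34506 in MY, which do not overlap, and 14 of the 20 had a higher mean in MA (45.4% of all genes did). Their median log2 fold change was 0.05 (0.02 without MA2), and 1, S100b, was higher at an unadjusted p under 0.05 (1.04% of all genes). In the mean log2 intensity of the list the groups overlapped, at 9.25 to 9.39 in MA and 9.13 to 9.30 in MY. Bright genes weigh most in a linear sum, among them Mt1, at 9613 ± 1319 in MA and 8636 ± 239 in MY (unadjusted limma p of 0.112). Gfap, the intermediate filament that rises in reactive astrocytes, was at 102 ± 11.1 in MA and 101 ± 6.34 in MY. S100b, a calcium-binding protein of astrocytes, had 38.1, 36.5, 56.4 and 46.3 in MA, against 41.0, 30.5, 30.4 and 18.6 in MY, with overlap (0.59 ± 0.27, unadjusted p of 0.0422). Without MY4 its fold change was 0.38, with a p of 0.189. The p was also past 0.05 without MA3, MA4, MY2 or MY3. Aqp4, the water channel of astrocyte endfeet, did not overlap and was lower in MA, at 759 ± 40.2 against 850 ± 35.7 in MY, but its unadjusted p over the 6 groups was 0.238. Etnppl, a phospho-lyase expressed in astrocytes and singled out after its values were seen, had 69.7, 152, 88.9 and 150 in MA, against 70.2, 71.6, 56.0 and 37.6 in MY on its brighter probe, where MA1 lay within the range of MY (0.94 ± 0.44, unadjusted p of 0.0450). A dimmer probe had 66.7, 120, 90.6 and 113 in MA, against 57.2, 48.0, 43.0 and 48.8 in MY, without overlap (0.96 ± 0.39), and its p was past 0.05 without MA2 or MA4 (0.0586 and 0.0517).

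Of 16 kept endothelial genes 12 had a lower mean in MA (54.6% of all genes did), with a median of -0.11 (-0.07 without MY1 or MY3), and 2 were lower at an unadjusted p under 0.05 (1.03% of all genes). Slco1c1, the thyroxine transporter of the blood-brain barrier, had 278, 354, 340 and 287 in MA, against 362, 442, 519 and 384 in MY, with no overlap (-0.43 ± 0.19, unadjusted p of 0.0336, but past 0.05 without MA1, MA4, MY2 or MY3, at most 0.116 without MY3). Itm2a, a membrane protein of the endothelial list, was at 289 ± 30.7 in MA and 340 ± 29.1 in MY (-0.24 ± 0.11), and its p was past 0.05 without MA1, MA3, MA4, MY1 or MY3 (0.117 without MA3). Col4a1, a chain of basement membrane collagen, had 319, 328, 336 and 399 in MA, against 399, 443, 413 and 427 in MY, so that MA4 all but reached the lowest MY array (-0.29 ± 0.10). Myh11, the myosin of smooth muscle, was at or near the floor in MA1 and MA4 (16 and 17.9) and at 39.1 and 34.4 in MA2 and MA3, against 35.0 to 42.7 in MY (-0.62 ± 0.27, or -0.41 with a p of 0.143 without MA1). The p was also past 0.05 without MA4, MY1 or MY2. Slc38a5, a glutamine transporter singled out after its values were seen, had 90.6, 84.2, 81.1 and 74.7 in MA, against 155, 138, 132 and 132 in MY (-0.75 ± 0.25, adjusted p of 0.0715 in the 8-array fit).

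Several of the largest fold changes belonged to genes of tissue that borders the hippocampus. All 12 probes that differed at least 2-fold were lower in MA, among them Clic6, Ttr, Ecrg4 and Sostdc1 of the choroid plexus list and Slc13a4 of the meningeal list, and for none of them did the groups separate. The smallest p of the 12 belonged to genes on neither list. Xlr4a had -1.46 (unadjusted limma p of 0.0192), with 1 MA array at 16, so it was kept through MY alone. Probes of Gpx8 had -1.30 to -1.22 (unadjusted limma p of 0.0482 to 0.0509). Ttr, the transthyretin of the choroid plexus, which secretes the fluid of the ventricles, had 777, 11962, 1551 and 792 in MA, against 2264, 11390, 12949 and 4472 in MY (-1.76 ± 1.02). Over the 8 kept choroid plexus genes of 16 on the array, summed intensities were 1138, 14149, 1868 and 1231 in MA, against 2699, 14147, 17536 and 4966 in MY. MA2, MY2 and MY3 were high and the other 5 arrays low, and all 8 genes had a lower mean in MA (median -0.98, or -1.57 without MA2, -0.65 without MY2 and -0.42 without MY3), yet 0 reached an unadjusted p of 0.05. The 12 kept meningeal genes likewise all had a lower mean log2 intensity in MA (median -0.38, or -0.25 without MA1 or MY2, -0.60 without MA2 and -0.64 without MY4). On the linear scale Dcn of this list had a higher mean in MA (1378 ± 629, against 1333 ± 301 in MY). The summed intensities of the list were 2903, 6451, 4523 and 2589 in MA, against 5424, 6756, 7761 and 2734 in MY. The part of bordering tissue in the values of Bmp4, highest among MA arrays in MA2, and of Igf2 (718, 2722, 960 and 784 in MA, against 1740, 2887, 3765 and 894 in MY) was not tested. Genes of red blood cells differed little, with Hba-a1 at 3131 ± 780 in MA and 3001 ± 367 in MY.

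**Figure D4:**
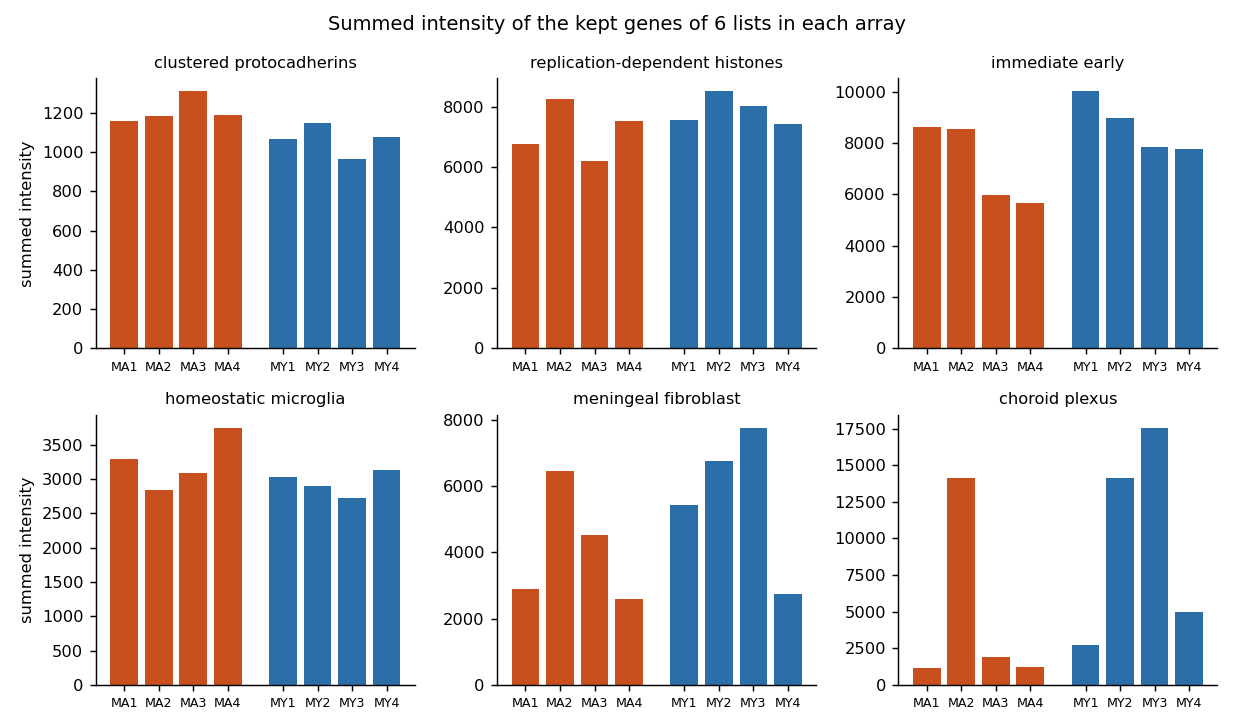
Summed intensity of the kept genes of 6 lists in each array, the 4 MA arrays in orange on the left and the 4 MY arrays in blue on the right of each panel. The protocadherin sums are 1158 to 1311 in MA and 965 to 1147 in MY and do not overlap, the immediate early sums of MA3 and MA4 lie below all MY arrays, and the choroid plexus sums differ more between arrays of 1 group than between the groups.

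The remaining genes chosen by size of p fall in no list. Upk1b, a tetraspanin best known from the bladder lining, had 39.0, 30.4, 33.0 and 34.0 in MA, against 18.3, 16, 16 and 23.3 in MY, so the log2 fold change of 0.90 ± 0.20 depends on the floor. Ppl, the cytoskeletal linker periplakin, had 22.5, 31.1, 24.4 and 28.4 in MA, against 16, 16.7, 16 and 16 in MY, and likewise depends on it (0.71 ± 0.18). Hkdc1, a hexokinase-like protein, was at 45.2 ± 3.70 in MA and 31.6 ± 3.23 in MY, and Smpdl3b, a sphingomyelinase-like enzyme, at 63.1 ± 1.92 in MA and 46.9 ± 3.09 in MY. Neither overlapped. Gpc5, a heparan sulphate proteoglycan, Fcho2, an endocytic adaptor, and Luc7l3, a splicing factor, did not overlap and differed by 0.30, 0.23 and 0.21 on the log2 scale, and the methods' test did not call them. The other probes of Gpc5 gave 0.14 and 0.07, those of Luc7l3 0.19 and, on the brightest, 0.03, and without MA3 the value for Luc7l3 above was 0.15. Gstm1, a glutathione transferase, was called by that test, at 1045 ± 110 in MA and 829 ± 75.2 in MY (0.33 ± 0.11).

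Lower in MA were Vmp1, a protein of autophagosome formation (35.2 to 46.2 in MA and 53.7 to 62.5 in MY), Sin3b, a transcriptional corepressor (16 to 21.9 in MA, with 2 arrays at the floor, and 22.2 to 29.9 in MY), Gss, glutathione synthetase (16 to 18.2 in MA, again with 2 at the floor, and 19.1 to 31.6 in MY), and Gosr2, a SNARE of the Golgi (40.1 to 44.1 in MA and 54.5 to 56.3 in MY). For several of these the other probes of the gene had smaller fold changes or the opposite sign. The 2 brightest other probes of Gosr2 gave 0.02 and 0.18, the brightest of Vmp1 gave -0.01, and the 2 others of Gss gave -0.19 and -0.09. Brcc3, a deubiquitinating enzyme, was at 67.8 ± 8.98 in MA and 45.3 ± 6.14 in MY on 1 probe (0.58 ± 0.15), while its 2 other probes gave 0.08 and -0.04. The methods' test also called Abca8a, Uty and Prkd1 higher and Casp6, Zfp11, Mcu, Tnc, Mkrn3, Map2 and Ankrd27 lower, and 4 probes without a gene name. Of these, Uty was kept through MA alone, and Mcu, Tnc, Mkrn3 and Ankrd27 through MY alone. Map2, the dendritic microtubule protein, was at 27.7 ± 4.76 in MA and 35.7 ± 4.26 in MY on that probe, and a bright probe of the same gene gave 0.04.

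The same change of age was then set against that in females, with the difference of the changes (MA minus MY, less FA minus FY) tested in the 6-group limma fit. No probe had an adjusted p under 0.05 (0 of 11514, smallest adjusted p of 0.362), while 1078 (9.36%) had an unadjusted p under 0.05. Pcdhb3, C4b and Lsp1 had fold changes of the same sign in both sexes. Pcdhb3 had 0.59 in males and 0.51 in females, a difference of 0.08 ± 0.16. C4b had 0.69 in males and 0.63 in females, a difference of 0.06 ± 0.25. Lsp1 had 0.56 in males and 0.69 in females, a difference of -0.13 ± 0.24. All were called by the methods' test, so they were picked by their values in MA and MY. That test also includes the FA and FY arrays, so their levels in females had a part in the call. Whether the changes are alike in the sexes was not tested.

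The genes described next were likewise picked by their values in MA and MY, which enter the difference. Their differences are thus a description and no test of a change particular to males. For Gpr17 the difference was -0.51 ± 0.22, with 163 ± 43.7 in FA and 175 ± 20.2 in FY. For the H2A genes it was -0.46 ± 0.19 (H2ac15), -0.52 ± 0.25 (H2ac7) and -0.50 ± 0.21 (H2ac12), with fold changes in females of -0.16, -0.08 and -0.01. For Dusp6 it was -0.46 ± 0.18, with 0.00 in females, and for Arc -0.92 ± 0.42, with 0.23 in females. Pcdhb14 had a difference of 0.48 ± 0.21 and 0.03 in females. Other genes had a fold change of the opposite sign in females: Ankrd27, an effector of endosomal traffic, with -0.58 in males and 0.50 in females, Brcc3, with 0.58 in males and -0.41 in females, and Prkd1, protein kinase D1, with 0.48 in males and -0.38 in females. The Ankrd27 probe with -0.58 had an MA array at the floor and was kept through MY alone, so the filter favoured its direction in males. The other probe of Ankrd27 gave 0.07 in males. None of these differences held after adjustment.

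**Figure D5:**
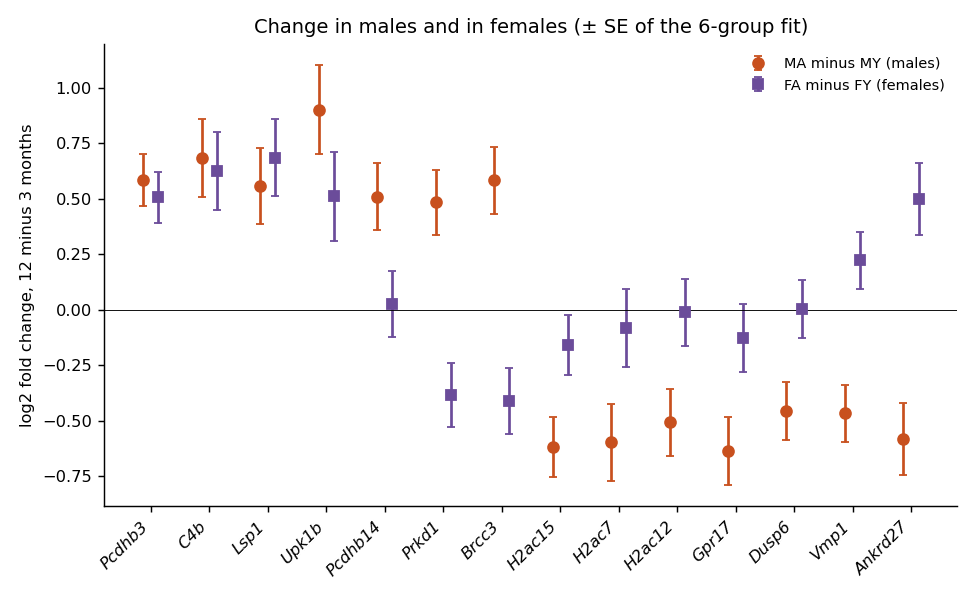
Log2 fold change between 12 and 3 months for 14 genes, with males (MA minus MY) as orange circles and females (FA minus FY) as purple squares, and error bars of 1 standard error of the 6-group fit. Pcdhb3, C4b and Lsp1 lie side by side in both sexes, the H2A genes, Gpr17 and Dusp6 are below 0 in males and close to 0 in females, and Prkd1, Brcc3, Vmp1 and Ankrd27 have opposite signs.

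At 24 months the levels of several of these genes lay further from MY than those at 12 months, given here as values with no test. Pcdhb3, C4b, Gpr17 and H2ac15 were called by the methods' test, which includes the MO arrays, so their MO levels had a part in that call. Pcdhb3 was at 97.0 ± 7.70 in MY, 146 ± 15.2 in MA and 177 ± 26.5 in MO. C4b was at 140 ± 11.5 in MY, 229 ± 58.6 in MA and 469 ± 121 in MO. Gpr17 was at 193 ± 8.13 in MY, 125 ± 9.31 in MA and 94.8 ± 21.3 in MO, and H2ac15 at 130 ± 6.45 in MY, 85.0 ± 8.62 in MA and 74.3 ± 11.7 in MO. For Dusp6 and Arc the level in MO lay between the other ages, at 1101 ± 28.3 in MY, 812 ± 143 in MA and 943 ± 152 in MO for Dusp6 and at 537 ± 123 in MY, 363 ± 181 in MA and 516 ± 127 in MO for Arc.

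Arrays of adult males also varied more among themselves. The variance of the log2 intensity among the 4 arrays of a group had a median over probes of 0.0276 in MA and 0.0157 in MY. The median ratio was 1.75, and the variance of MA was the larger one for 66.6% of probes. The ratio was 1.14 without MA3 and 2.41 without MY4. Pearson's r between arrays, across probes that are not independent replicates, was 0.978 to 0.991 within MA and 0.987 to 0.993 within MY. With 4 arrays in each group, this spread limits the precision of the fold changes.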

How the data were processed

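Total RNA of the hippocampus was measured on 24 Illumina Mouse Ref8 arrays, 4 in each of 6 groups of age and sex. The deposited intensities were made by the authors with average normalization and background subtraction in GenomeStudio (version 2011.1 per the submitters' processing notes), so that each array has the same mean intensity of 206.642 and many values lie below 0. They were raised to a floor of 16 and taken to log2. MA and MY were compared with limma 3.58.1 (R 4.3.3) over the 24 arrays, with a trend in the empirical Bayes step and Benjamini-Hochberg adjustment over kept probes. The methods' test was rebuilt from the study's description, and single genes were also tested by a two-sided exact permutation over 70 divisions of the 8 arrays. Scripts were checked on simulated data.

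Of 25697 probes, 23978 had 1 gene symbol in the platform annotation and 1719 had none listed; 23962 were matched through Entrez IDs and 9 through accessions, 8 symbols were updated, and 7 probes matched neither. A second table of unnormalized values, with 48 columns that name no sample, was not used, so that chip and scan could not be examined as batches. Genes named are the 12 of smallest p in each direction whose groups do not overlap, up to 4 members of each gene list that passed an unadjusted p of 0.05 or the methods' test, the first 3 members of each list, and 9 genes known from earlier results. Abca8a, Adgre1, Casp6, Ecrg4, Egr1, Enpp6, Etnppl, Gpx8, H2ac10, H2ac20, H2bc18, H4c8, Map2, Mcm5, Mcu, Mkrn3, Pcdhac2, Pcdhb22, Pcdhb7, Pcna, Slc13a4, Slc38a5, Sostdc1, Tnc, Tnfsf13b, Trem2, Uty, Xlr4a and Zfp11 fall outside this and were chosen after their values were seen. The comparison, the lists and the tests were chosen with earlier results of these data known.

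Nothing in the labels says whether same-numbered arrays of MA and MY share a batch. Their deviations from the group means correlated at 0.19, 0.14, -0.18 and 0.24 for numbers 1 to 4, and the numbers were not taken as pairs. The p-values measure the spread between these arrays, whose number limits the precision. Alternatives covered the floor, the probe filter, quantile normalization, array weights, the trend, the arrays in the fit, a replicate block and leaving out each array.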

Additional observations from a re-analysis of the deposited data

Results flagged for a closer look

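In 10 of 114 groups of 4 arrays (MA and MY for 57 genes), 1 array lay far from the other 3 by Dixon's criterion, where chance gives about 1 in 20, or 5.7 groups. In MA3, Luc7l3 was at 1757, against 1465 to 1478 in the other MA arrays, Sin3b at 21.9, against 16 to 16.4, Tef at 835, against 535 to 572, and Nptx2 at 211, against 267 to 272. In MA2, Ttr was at 11962, against 777 to 1551 in the other MA arrays, and Clic6 at 535, against 27.3 to 51.5. C4b was at 317 in MA4, against 195 to 207 in the other MA arrays. In MY, H2ac15 was at 140 in MY1, against 126 to 127 in the other MY arrays, Tnfsf13b at 26.6 in MY2, against 16 to 17.4, and Ppl at 16.7 in MY2, against 16 in all 3 others, which is a gap at the floor.

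Ankrd27 was flagged because its change with age ran in opposite directions in the sexes, with every MA array below every MY array and every FA array above every FY array. The difference of the changes was -1.08 on the log2 scale, with an unadjusted limma p of 9.51e-05 and an adjusted p of 0.362. Ankrd27 was among the genes picked by their values in MA and MY, which enter this difference. An MA array of its probe lay at the floor, so the probe was kept through MY alone. The filter thus favoured its lower mean in MA. A second probe of Ankrd27 had a difference of -0.02.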

How the results depend on the processing

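No probe was called by limma between MA and MY, or for the difference between males and females, under any alternative run. The smallest adjusted p for MA against MY was 0.327 with a floor of 8, 0.583 with a floor of 32, 0.387 with quantile normalization, 0.100 with array weights and 0.0715 with the 8 arrays alone. With the replicate number as a block it was 0.240 over the 6 groups and 0.412 over the 8 arrays, with 0 probes called in both and 255 and 494 at an unadjusted p under 0.05. The methods' test called 37 probes, but 24 with a floor of 32 and, in alternatives chosen after seeing the data, 72 over the 3 male ages and 39 without the step-down. Leaving out 1 array, it called 26 (without MY3) to 51 (without MA2), the probes whose groups do not overlap numbered 472 (without MY3) to 766 (without MA2), as fewer arrays separate more easily, and the variance ratio ran from 1.14 (without MA3) to 2.41 (without MY4). The log2 fold change of Dcx, near 0, ran from -0.19 without MA3 to 0.10 without MA4 and was above 0 in 3 such settings. No other of the 57 genes recomputed changed direction in any setting. List medians moved by more than their spread in 5 settings (446 did not), such as CA1 genes at -0.26 without MA3 and GABA-A receptor genes at -0.08 without MA3. With a floor of 32 the medians of clustered protocadherins (0.14), oligodendrocyte precursors (-0.04), endothelium (-0.07) and cell cycle (-0.12) came closer to 0. Probes at an unadjusted p under 0.05 numbered 172 (without MY3) to 378 (without MA2). The cause of these moves was not tested. With a floor of 32, Ppl, Sin3b, Ankrd27, Prc1, Gss and Cela1 gave no value.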
